A study of Saccharomyces cerevisiae with 8 samples.

Results

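Cycloheximide (CHX) treatment of wild-type budding yeast was compared with no treatment over the open reading frames (ORFs) of Xrn1-sensitive unstable transcripts (XUTs). XUTs are long noncoding RNAs that accumulate when the cytoplasmic exonuclease Xrn1 is missing. The ORFs examined were those with at least 1 ribosome footprint read in WT or in WT + CHX, with the 2-micron plasmid left out. They were 5870 of the 13941 listed ORFs and lay in 1331 of 1637 XUTs. Their lengths ran from 15 to 4038 nt (median 63), and 1050 of them were the first ORF of their XUT. In all, 3094 lay antisense to a coding sequence (CDS), 2750 overlapped no CDS, and 26 overlapped an annotated gene on their own strand.

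Ribosome profiling (Ribo-seq) reads the short pieces of RNA that a ribosome protects when nuclease is added. The WT cells were BY4741, a MATa laboratory strain with the alleles his3Δ1, leu2Δ0, met15Δ0 and ura3Δ0, in YPD at 30 °C and an OD600 of 0.5. WT + CHX cells had CHX for 15 min before harvest, at a dose not given in the sources used here, and WT cells had none. The upf1 and upf1 + CHX cells, set beside them below, carried upf1*::kanMX4 in the same background. Each condition had 2 biological replicates, deposited as 1 merged value per ORF. No value below therefore has a replicate error, and no difference between treatments could be tested. Intervals of shares and of ratios of shares are 95% exact (Clopper-Pearson) intervals, and they cover counting error only.

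CHX binds the large ribosomal subunit and blocks translocation, so elongating ribosomes stop. Initiation can go on for a time after the drug is added, and in ribosome profiling of yeast mRNAs such pretreatment is known for extra footprints near start codons. A ribosome that scans a transcript from its 5′ end meets the first ORF first. In a XUT, which often holds many short ORFs in series, later ORFs need leaky scanning or reinitiation.

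Most ORFs overlap others (66.2% of the 5870), and such ORFs can count the same reads. Reads were therefore summed over 9293 non-overlapping ORFs, of which 4067 in 1327 XUTs had a read in either condition. These held 3329 reads in WT and 25584 in WT + CHX. The depth of the libraries is not known from these sums, so each level is a share of these reads. The count per ORF was low: in WT 861 of the 1375 ORFs with a read had only 1, and in WT + CHX 1535 of 3829. Whether reads were counted by strand is not given in the sources used here. In ORFs antisense to a CDS, reads of the XUT and of the gene's mRNA would not be told apart if strand was ignored.

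The 5 ORFs with most reads in each condition are 8 ORFs, because those of XUT0957 and XUT1722 were in both lists, and each list held short and long ORFs. They are printed here from the R64 genome sequence to show the 24-nt ORF at the head of the CHX list beside the 234-nt ORF at the head of the untreated list. Those of XUT0541, XUT1511, XUT1452 and XUT1722 are in XUTs that overlap a Ty retrotransposon or a long terminal repeat (LTR), whose genomic copies can share reads. Each runs 5′ to 3′ on the transcribed strand, with the start and stop codons in capitals. The coordinates end before the stop codon.
XUT1036, first ORF of 24 nt, chr4:217079-217102, minus strand: ATGactaaacgttctatacagattTAG
XUT0541, first ORF of 45 nt, chr10:421923-421967, plus strand: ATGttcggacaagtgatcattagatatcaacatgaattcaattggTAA
XUT1511, ORF 3 of 36 nt, chr12:818333-818368, minus strand: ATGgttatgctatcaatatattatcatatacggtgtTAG
XUT1452, ORF 8 of 114 nt, chr11:513791-513904, minus strand: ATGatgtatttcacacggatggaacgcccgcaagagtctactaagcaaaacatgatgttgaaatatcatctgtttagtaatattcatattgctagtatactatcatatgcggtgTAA
XUT1722, first ORF of 126 nt, chr15:969771-969896, minus strand: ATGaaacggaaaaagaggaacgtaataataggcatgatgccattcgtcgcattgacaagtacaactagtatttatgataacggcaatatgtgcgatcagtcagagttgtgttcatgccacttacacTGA
XUT1514, ORF 2 of 156 nt, chr12:928360-928515, minus strand: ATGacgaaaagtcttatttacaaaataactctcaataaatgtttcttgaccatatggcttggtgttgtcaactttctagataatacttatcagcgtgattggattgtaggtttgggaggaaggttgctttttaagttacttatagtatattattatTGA
XUT0957, ORF 4 of 234 nt, chr2:169637-169870, minus strand: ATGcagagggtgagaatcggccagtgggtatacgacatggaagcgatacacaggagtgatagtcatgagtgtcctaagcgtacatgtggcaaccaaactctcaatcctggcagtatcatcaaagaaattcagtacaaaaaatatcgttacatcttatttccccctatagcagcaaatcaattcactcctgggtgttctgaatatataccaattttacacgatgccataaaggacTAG
XUT1137, first ORF of 240 nt, chr5:242205-242444, minus strand: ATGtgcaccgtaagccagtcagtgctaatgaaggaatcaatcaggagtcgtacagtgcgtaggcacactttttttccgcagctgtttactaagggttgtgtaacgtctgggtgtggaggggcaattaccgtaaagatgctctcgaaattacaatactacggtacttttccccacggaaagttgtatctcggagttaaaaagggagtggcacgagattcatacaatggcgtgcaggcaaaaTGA

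Without CHX the most-read ORF was that of XUT0957, between the ribosomal protein gene RPL19B and LSM2, with 144 reads or 4.33% of the WT reads. With CHX it had 273 reads or 1.07%, a 0.247-fold share (0.201 to 0.304). The first ORF of XUT1722 had 92 reads in WT and 176 in WT + CHX (0.249-fold, 0.192 to 0.324). That of XUT1137 had 48 and 69 reads (0.187-fold, 0.128 to 0.276). All 3 took a smaller share of the reads with CHX. They were chosen for their WT reads, which the ratios also use, and such a choice favours a smaller share with CHX.

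With CHX the most-read ORF was the 24-nt first ORF of XUT1036, which starts beside ARF2, a gene for an ADP-ribosylation factor of vesicle traffic. It had 10 reads in WT, 0.300% of them, and 393 in WT + CHX, 1.54% (5.11-fold, 2.75 to 10.7). The 45-nt first ORF of XUT0541, near the chaperonin subunit gene CCT8, had 4 and 196 reads (6.38-fold, 2.45 to 23.6). These ORFs were chosen for their CHX reads, which in turn favours a larger share with CHX. In upf1 cells the share of the first of these was 5.51-fold larger with CHX (3.80 to 8.25) and that of the second 2.12-fold (1.56 to 2.92). The 114-nt ORF of XUT1452, upstream of the amino acid permease gene GAP1, held about its share, with 37 and 246 reads (0.865-fold, 0.611 to 1.26). The ORFs of XUT0541 and XUT1452 overlap other listed ORFs, which can count the same reads, while that of XUT1036 overlaps none.

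Over all XUTs, reads lay further to the 5′ side with CHX. First ORFs held 1216 of 3329 reads in WT, or 36.5% (34.9 to 38.2), and 11004 of 25584 in WT + CHX, or 43.0% (42.4 to 43.6). The ratio of these shares was 1.18 (1.11 to 1.25). ORFs at order 2 held 16.4% and 17.0% (ratio 1.04, 0.952 to 1.14), so their share was level within counting error. ORFs at order 3 held 9.34% and 7.74% (0.828, 0.734 to 0.936), and those at order 5 or later 28.3% and 25.7% (0.910, 0.849 to 0.975).

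ORFs at order 4 held 9.49% and 6.51% (0.686, 0.608 to 0.776). That difference rested on 1 ORF: of their 316 WT reads, 144 were in XUT0957, and without this XUT the ratio was 1.02 (0.868 to 1.20). The ratio of the first ORFs was 1.14 (1.07 to 1.21) without XUT0957 and 1.16 (1.09 to 1.23) without XUT1036. By distance, ORFs that started over 1000 nt downstream of the first start codon held 10.3% of reads in WT and 7.45% with CHX (0.721, 0.642 to 0.811).

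**Figure D1:**
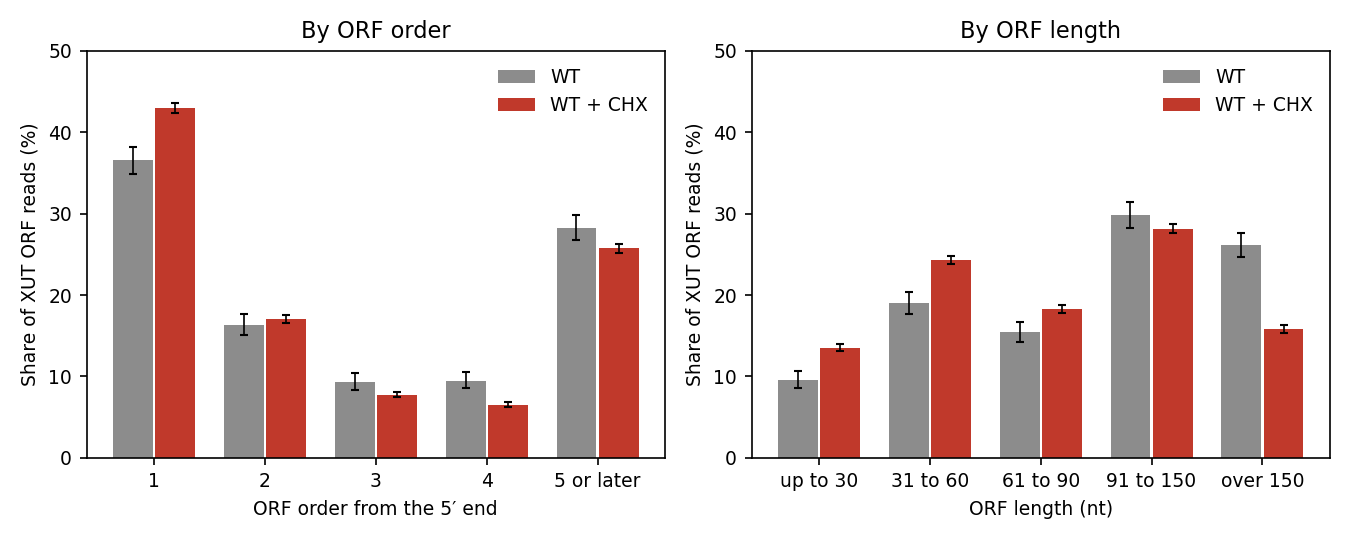
Share of the XUT ORF reads (%) in WT (grey) and WT + CHX (red) by ORF order from the 5′ end (left) and by ORF length in nt (right), with 95% exact binomial intervals for counting error as error bars. The first ORFs went from 36.5% to 43.0% and ORFs over 150 nt from 26.1% to 15.8%.

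By length, every class up to 90 nt held a larger share with CHX and ORFs over 150 nt a smaller one. ORFs of up to 30 nt held 9.61% (8.63 to 10.7) of the reads in WT and 13.5% (13.1 to 13.97) in WT + CHX, a ratio of 1.41 (1.26 to 1.58). For 31 to 60 nt the shares were 19.01% and 24.3% (1.28, 1.18 to 1.39), and for 61 to 90 nt 15.4% and 18.2% (1.18, 1.08 to 1.30). ORFs of 91 to 150 nt held 29.8% and 28.1%, a ratio whose interval included 1 (0.942, 0.882 to 1.01).

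ORFs over 150 nt held 26.1% (24.6 to 27.6) of the reads in WT and 15.8% (15.4 to 16.3) in WT + CHX. Their ratio was 0.606 (0.563 to 0.653), and 0.654 (0.604 to 0.709) without XUT0957. The median length of the ORF in which a read lay was 102 nt in WT and 81 nt in WT + CHX.

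Order and length were then crossed. Short first ORFs stood out. First ORFs of up to 30 nt had a ratio of 1.84 (1.55 to 2.197), from 140 reads without CHX and 1977 with it. Later ORFs of the same length had 1.08 (0.922 to 1.26), on 180 and 1489 reads. For 31 to 60 nt the ratio was 1.51 (1.32 to 1.72) in first ORFs and 1.13 (1.01 to 1.26) in later ones. For 61 to 90 nt it was 1.35 (1.17 to 1.57) and 1.07 (0.955 to 1.21).

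Above 90 nt, first and later ORFs were alike within counting error. At 91 to 150 nt the ratios were 0.944 (0.853 to 1.047) for first and 0.941 (0.862 to 1.03) for later ORFs. Over 150 nt they were 0.631 (0.541 to 0.737) and 0.598 (0.550 to 0.652). Long ORFs as a class thus took a smaller share with CHX both as first and as later ORFs.

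Reads per 100 nt show how the classes stood to each other within each condition. Each class has a fixed number of nt, so its change relative to the mean equals the ratio of shares by construction. First ORFs of up to 30 nt had 1.53 reads per 100 nt in WT, 2.98 times the mean density of 0.513 over all ORFs. In WT + CHX they had 21.6 reads per 100 nt, 5.48 times the mean of 3.95. First ORFs over 150 nt had 2.30 times the mean density in WT and 1.45 times in WT + CHX, while later ORFs over 150 nt had 0.821 and 0.491 times. The short first ORFs were thus the densest class in both conditions. Without CHX the next was first ORFs of 91 to 150 nt at 2.81 times the mean, and with CHX first ORFs of 31 to 60 nt at 3.70 times. A footprint spans at least as many bases as the shortest of these ORFs. How reads at their ends were assigned therefore bears on these densities, and the assignment rule is not given in the sources used here.

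In upf1 cells, whose libraries are separate from those of WT, the order of the classes by ratio was close to that in WT. First ORFs of up to 30 nt had a ratio of 1.66 (1.52 to 1.81) and first ORFs over 150 nt 0.816 (0.758 to 0.878). Later ORFs over 150 nt had 0.733 (0.701 to 0.767), against 0.598 (0.550 to 0.652) in WT, and the intervals do not overlap. With 1 merged value per condition, this difference between genotypes was not tested over cultures. First ORFs as a whole held 36.8% in upf1 and 43.8% in upf1 + CHX (1.19, 1.16 to 1.23).

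**Figure D2:**
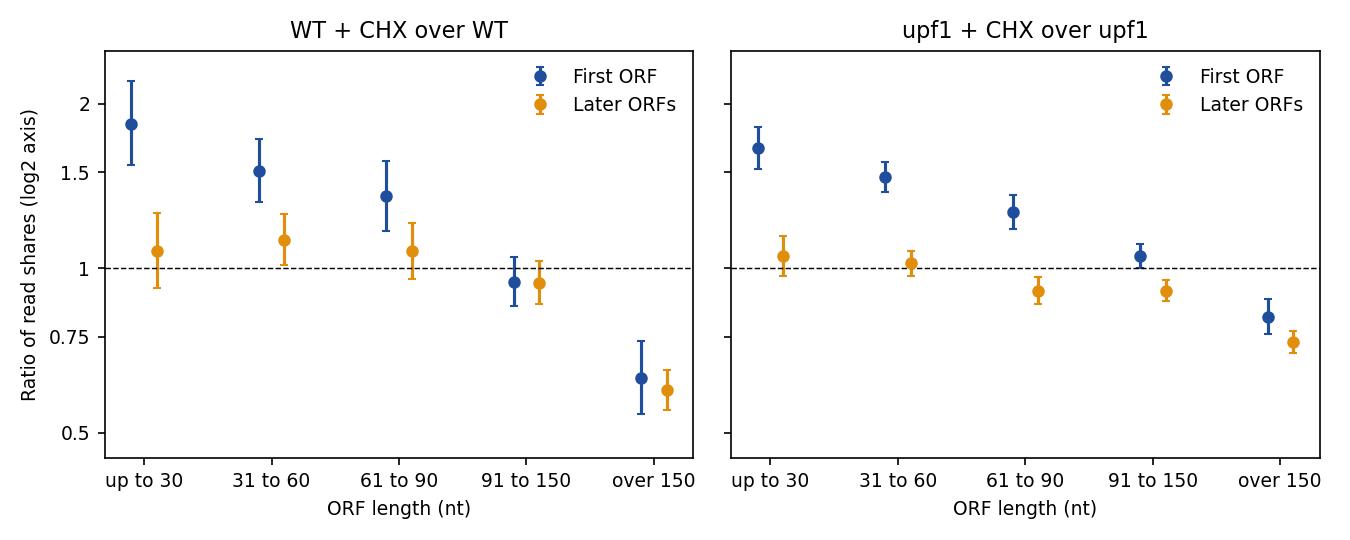
Ratio of read shares, CHX over none (log2 axis), by ORF length in nt for the first ORF of a XUT (blue) and for later ORFs (orange), in WT (left) and in upf1 (right), with 95% exact intervals for counting error. In WT the first ORFs run from 1.84 at up to 30 nt to 0.631 over 150 nt, and later ORFs stay between 1.13 and 0.598.

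The first ORF was also compared with the other ORFs of its own XUT, which removes differences in how much of each XUT was present. This took 52 XUTs with at least 2 listed ORFs, a first ORF in the non-overlapping set and 10 reads in each condition. The median share of the first ORF was 26.1% in WT and 34.5% in WT + CHX. It was larger with CHX in 32 XUTs, smaller in 11 and equal in 9. Some could only be equal: in XUT0398 and XUT1682 the other ORFs lie within the first, which held 100% in both conditions. Others could only be equal or larger, because their first ORF had 0 reads in WT. Examples are XUT0166, with 0 of 46 reads and then 2 of 182, and XUT0083, with 0 of 44 and then 8 of 240. XUT1433 and XUT1156 held 100% in WT and could only be equal or smaller. The balance of larger and smaller shares is limited by this. The median of the differences was 2.56 percentage points, with quartiles of 0 and 11.2. Summed over these XUTs the first ORF held 476 of 1262 reads, or 37.7%, and 2800 of 6184, or 45.3%. In the same XUTs the median went from 23.5% in upf1 to 33.9% in upf1 + CHX.

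The largest differences rested on few WT reads. In XUT0536, antisense to LOH1, the 75-nt first ORF held 3 of 11 reads in WT (27.3%, 6.02 to 60.97) and 14 of 19 in WT + CHX (73.7%, 48.8 to 90.9). In XUT0541 it held 4 of 10 reads (40%, 12.2 to 73.8) and 196 of 238 (82.4%, 76.9 to 87.0). XUT0541 alone had intervals that do not overlap between treatments. Its first ORF overlaps another listed ORF, which can count the same reads.

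Next came XUT1086, antisense to CRF1, a corepressor gene for ribosomal protein genes, where the first ORF went from 3 of 11 reads to 48 of 88. In XUT0305, antisense to TOG1, it went from 6 of 12 to 22 of 31, and in XUT0047 near the origin recognition gene ORC2 from 2 of 14 to 19 of 55. All of these had overlapping intervals.

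The share of the first ORF was smaller with CHX by most in XUT0759, antisense to YNL134C and FYV6. Its 207-nt first ORF held 12 of 13 reads in WT and 24 of 37 in WT + CHX. XUT1101, antisense to ARO10, a decarboxylase gene of the Ehrlich pathway, went from 5 of 25 to 2 of 40. Behind them were XUT0780, from 14 of 15 to 146 of 175, XUT1014, from 4 of 11 to 43 of 160, and XUT1433, antisense to MBR1, from 14 of 14 to 77 of 83. None of these 5 had separate intervals.

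**Figure D3:**
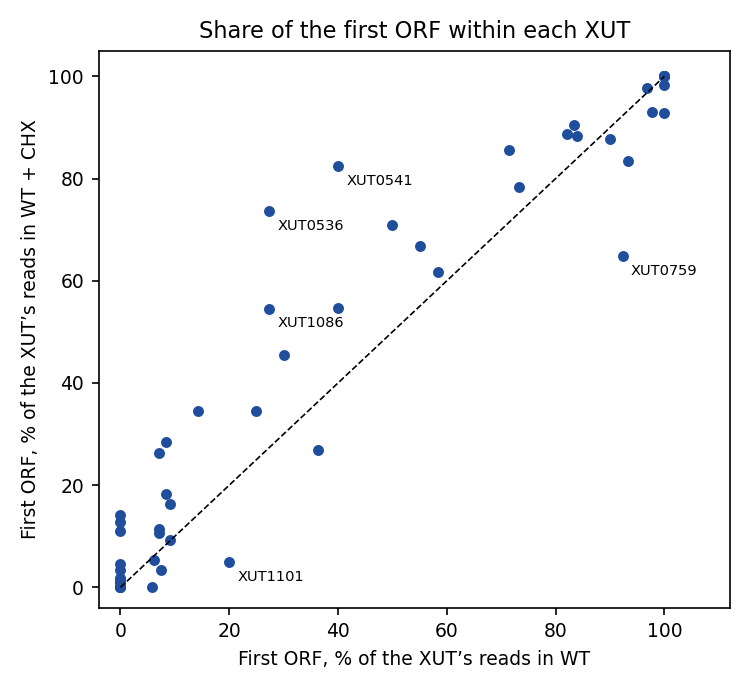
Share of the first ORF in the reads of its XUT in WT (x axis, %) and in WT + CHX (y axis, %), 1 point for each of 52 XUTs, with the line of equal shares dashed. More points lie above the line (32) than below it (11). Points at 0% in WT cannot lie below the line, and points at 100% cannot lie above it.

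Shares were then compared per XUT, for the 200 XUTs with at least 4 reads in WT and 20 in both conditions together. They held 68.0% of the WT reads and 52.0% of the WT + CHX reads. The share was at least 2-fold larger with CHX in 17 XUTs (8.5% of those compared) and at most 0.5-fold in 39 (19.5%). The counting interval excluded 1 in 8 of the 17 and in 26 of the 39. The median ratio was 0.813 (log2 -0.30, quartiles -0.88 and 0.30).

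A minimum of WT reads keeps out XUTs with few reads in WT, so this balance depends on how XUTs are chosen. Chosen by at least 60 reads in the upf1 columns, which the ratio does not use, 218 XUTs had a median ratio of 1.17, with 65 at least 2-fold larger and 25 at most 0.5-fold. There, the 7 XUTs with 0 WT reads were set at a floor of 3 reads per XUT. The excess of smaller over larger shares in the 200 XUTs is therefore not a result.

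The XUTs with larger shares differed from the others in the ORF that led them. The most-read ORF under CHX had a median length of 48 nt in the 17 XUTs with larger shares, 94.5 nt in the 144 between and 120 nt in the 39 with smaller shares. It was the first ORF in 12, 71 and 16 of them, and longer than 150 nt in 1, 24 and 15. These XUTs were chosen by the same reads, so the lengths are a description.

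**Figure D4:**
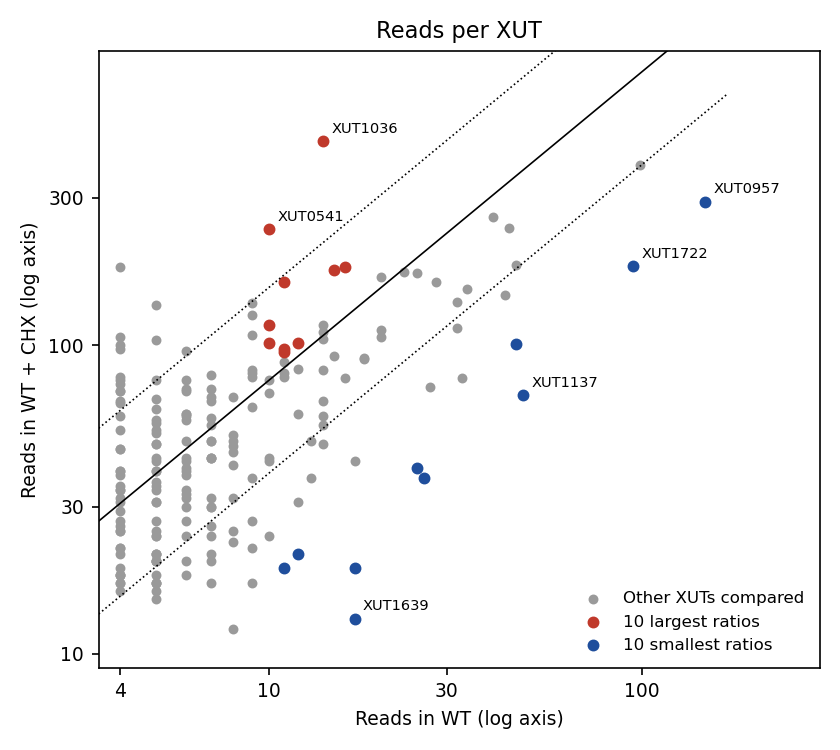
Reads in WT (x axis, log) and in WT + CHX (y axis, log) for the 200 XUTs compared. The solid line marks equal shares of all reads and the dotted lines a 2-fold larger or smaller share, and the 10 largest (red) and 10 smallest (blue) ratios among XUTs with at least 10 reads in each condition are coloured. XUT1036, with 14 and 459 reads, lies farthest above the line among the coloured XUTs, and XUT1639, with 17 and 13, farthest below.

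With at least 10 reads in each condition, 63 XUTs could be compared, of which 2 (3.17%) were at least 2-fold larger and 20 (31.7%) at most 0.5-fold. This choice also keeps out XUTs with few WT reads, so that balance is not a result either. The ratio was largest for XUT1036, antisense to ARF2 and to RGT2, a glucose sensor (chr4:212685-217102, first to last ORF). It had 14 reads in WT and 459 in WT + CHX, a 4.27-fold share (2.52 to 7.87), and 393 of the 459 were in the 24-nt ORF printed above. XUT0541, antisense to YJL007C (chr10:421923-422771), had 10 and 238 reads (3.10-fold, 1.65 to 6.54). Of the 10 XUTs with the largest ratios, XUT0541, XUT1014, XUT0842, XUT0430 and XUT1746 overlap a Ty element or LTR, so copies elsewhere can share their reads. In XUT1014, on chromosome 3, 11 and 160 reads gave 1.89-fold (1.03 to 3.87), led by a 72-nt ORF at order 2 with 7 and 95 reads.

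The other 7 of the 10 had intervals that included 1. XUT0780, antisense to PUL3, had 15 and 175 reads (1.52-fold). XUT0599, near the Rab GTPase gene YPT52, had 10 and 116 (1.51-fold), and XUT0842, over YOR343C and opposite XUT1722, had 16 and 179 (1.46-fold). XUT0398 lies opposite LSC2, which encodes part of the citrate-cycle enzyme succinyl-CoA ligase, and had 10 and 102 reads (1.33-fold, 0.693 to 2.85, and 0.979-fold with overlapping ORFs kept), all in 1 ORF of 453 nt. XUT0430, XUT1746 and XUT0909 lay between 1.11-fold and 1.15-fold.

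At the other end, the 10 smallest ratios all had intervals below 1, as did 25 of the 63 XUTs in all. The 10 were chosen for their ratios and the 63 by a minimum of WT reads. Both choices favour intervals below 1, so these counts are a description and not a result. XUT1639, which overlaps a Ty retrotransposon whose genomic copies can share reads (chr14:562357-567660), had 17 reads in WT and 13 in WT + CHX (0.0995-fold, 0.0444 to 0.218). Of these, 16 and 13 were in 1 ORF of 4038 nt. XUT1409, antisense to HMS2, a gene for a protein like heat shock transcription factors, had 17 and 19 reads (0.145-fold, 0.0716 to 0.298). XUT1492 near FAR10, a gene of the pheromone arrest pathway, holds a single ORF of 84 nt and had 26 and 37 reads (0.185-fold).

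XUT1137 near ACA1, a gene for a bZIP transcription factor, had 48 and 69 reads (0.187-fold). XUT1101, antisense to ARO10, had 25 and 40 (0.208-fold), of which 12 and 28 were in a 120-nt ORF at order 2. XUT0536 had 11 and 19 (0.225-fold). XUT0567, antisense to MNN4, a gene needed to add phosphate to cell-wall mannan, had 12 and 21 (0.228-fold). Here 10 and 19 reads were counted in a first ORF of 42 nt. A 102-nt ORF at order 2 overlaps it and had 11 and 15 reads, so these reads cannot be credited to the short first ORF alone.

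XUT1722, over a Ty element or LTR on chromosome 15, had 95 and 180 reads (0.247-fold), and XUT0957 148 and 292 (0.257-fold). XUT1514 near the seipin gene SEI1 had 46 and 101 (0.286-fold). The same 10 XUTs in upf1 cells had ratios of CHX over none from 0.194 for XUT1639 to 1.37 for XUT1514. The upf1 interval excluded 1 on the lower side for XUT1639 (0.126 to 0.293), XUT1409 (0.303 to 0.911), XUT1101 (0.400 to 0.639), XUT0567 (0.211 to 0.501) and XUT1722 (0.588 to 0.828), and included it for the other 5. Of the 10 largest, XUT1036 had a 3.06-fold larger share with CHX in upf1 (2.36 to 4.02) and XUT0541 a 1.67-fold larger one (1.30 to 2.16). XUT0599 went the other way (0.696, 0.545 to 0.891).

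XUTs were also grouped by the gene they lie antisense to or nearest to. Ribosomal protein genes, whose products build the ribosome, flanked 13 XUTs, of which 4 had enough reads. Of these 3 had at least 2-fold larger shares with CHX and 0 smaller ones, beside 8.5% and 19.5% of all 200, and their median log2 ratio was 1.55 against -0.30. XUT1139 near RPL34A had 5 and 135 reads (3.51-fold, 1.47 to 11.0), XUT1590 near RPS10B 4 and 97 (3.16-fold, 1.19 to 11.8), and XUT1052 near RPL4B 5 and 104 (2.71-fold, 1.12 to 8.51). XUT1486 near RPS31 had 6 and 49 reads (1.06-fold, 0.455 to 3.04). Over all 13 the reads were 28 in WT and 512 in WT + CHX, or 0.841% and 2.00% (ratio 2.38, 1.63 to 3.62). In upf1 the ratio was 1.4997 (1.26 to 1.79).

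These ribosomal protein values depend on what counts as flanking. XUT0957 lies between RPL19B and LSM2 and is outside the list because LSM2 is nearer to its first ORF. With all 40 XUTs that have an ORF within 500 nt of a ribosomal protein CDS, a distance chosen after the values were seen, the reads were 284 in WT and 2195 in WT + CHX. Their ratio was 1.01 (0.888 to 1.14), with 5 of 15 compared XUTs larger and 3 smaller. Without XUT0957, which held 148 of the 284 WT reads, it was 1.82 (1.53 to 2.18).

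Ribosome biogenesis genes, matched by name, flanked 9 XUTs, and their reads went from 16 to 201 (ratio 1.63, 0.982 to 2.92). Of the 3 compared, XUT0732 near the rRNA processing gene RRP5 had 4 and 106 reads (3.45-fold, 1.31 to 12.9). It overlaps XUT1590 on the opposite strand, so these XUTs are not separate loci. XUT0180, antisense to RRP1, had 1.04-fold (0.369 to 4.05), and XUT1015 near MAK32, which is in the list by its name only, had 0.520-fold (0.190 to 1.77).

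Genes of nutrient transport flanked 34 XUTs with 102 and 638 reads (ratio 0.814, 0.659 to 1.01). Of the 5 compared, 0 had a larger and 1 a smaller share, beside 8.5% and 19.5% of all 200 XUTs. The smaller one was XUT0925 antisense to the oligopeptide transporter gene OPT2 (7 and 24 reads, 0.446-fold, 0.187 to 1.23). XUT1682 and XUT1681 are in this list through PHO80, which encodes a cyclin and no transporter. Respiration genes flanked 20 XUTs with 57 and 575 reads (1.31, 0.999 to 1.76), and 0 of the 3 compared passed 2-fold either way. XUTs over a Ty element or LTR numbered 120 and held 14.7% of the reads in WT and 12.3% in WT + CHX (0.832, 0.756 to 0.916). Of their 22 compared, 2 had larger and 4 smaller shares, near the 8.5% and 19.5% of all 200 XUTs, and the median log2 ratio was -0.28 against -0.30.

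Features other than order and length were compared in the same way. ORFs with an A at -3 from the start codon, the base most common there in yeast genes, held 35.8% (34.2 to 37.5) of reads in WT and 35.9% (35.3 to 36.5) in WT + CHX, a ratio of 1.00 (0.944 to 1.07). Without the 25 XUTs with most reads, that ratio was 1.14. ORFs antisense to a CDS held 36.9% and 37.96% (1.03, 0.969 to 1.09), and those that overlapped no CDS 61.4% and 61.1%. ORFs on the strand of an annotated gene held 1.65% and 0.958% (0.580, 0.431 to 0.791). Of their 55 WT reads 43 were in XUT0468, and without it the ratio was 1.12 (0.614 to 2.24). In upf1, ORFs antisense to a CDS held 49.4% of reads without CHX and 42.0% with it (0.851, 0.828 to 0.874). Those that overlapped no CDS held 47.8% and 56.2% (1.18, 1.15 to 1.21). These differences between genotypes were not tested.

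By stop codon, ORFs ending in TAA held 33.6% of reads in WT and 40.3% in WT + CHX (1.20, 1.13 to 1.28), those ending in TAG 29.0% and 25.1% (0.867, 0.810 to 0.929), and those in TGA 37.5% and 34.6% (0.924, 0.871 to 0.981). The TAG and TGA values rested in part on 1 XUT each: without XUT0957 TAG had 0.943 (0.877 to 1.02), and without XUT1722 TGA had 0.956 (0.899 to 1.02). The stop codons were also compared within length classes. Among ORFs of up to 60 nt the ratios were 1.05 (0.948 to 1.17) for TAA, 0.863 (0.769 to 0.972) for TAG and 1.09 (0.960 to 1.25) for TGA. Among ORFs over 60 nt they were 1.26 (1.17 to 1.36), 0.839 (0.772 to 0.914) and 0.912 (0.853 to 0.976). The TGA ratio was thus on opposite sides of 1 in the length classes, with an interval that included 1 in the short one. In upf1 the ratios were 1.06 (1.03 to 1.09) for TAA, 1.01 (0.970 to 1.04) for TAG and 0.938 (0.910 to 0.967) for TGA. The smaller TAG share of WT was thus not seen in upf1. Among upf1 ORFs of up to 60 nt, TAA had 0.980, TAG 1.04 and TGA 0.987, each with an interval that included 1.

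At an equal number of XUT ORF reads, close to the same number of ORFs was read in both conditions. Of the 9293 non-overlapping ORFs, 1375 had a read in WT and 3829 in WT + CHX. Thinned to the 3329 reads of WT, the CHX reads would fall in 1408 ORFs by the exact hypergeometric expectation, 1.02 times the WT number. For XUTs the numbers were 781, 1305 and, thinned, 819 (1.049 times). Of the ORFs read in WT, 82.7% were also read with CHX, and of those read with CHX 29.7% were also read in WT. Among ORFs with no read in WT the highest count with CHX was 98, and among those with none with CHX the highest in WT was 6.

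The phase score, deposited by the authors, runs from 0 to 1, and its formula is not given in the sources used here. It is taken here as a measure of how far the reads of an ORF keep to 1 of the 3 frames. It depended on the number of reads: in WT its median was 1 for ORFs with 1 read, 0.577 with 4 to 9 reads and 0.389 with 20 to 49, and with CHX it was 1, 0.529 and 0.357. Treatments were therefore compared over the 47 ORFs with at least 10 reads in both. Their median score was 0.391 in WT and 0.337 in WT + CHX. The score was higher with CHX in 17 ORFs and lower in 30, with a median difference of -0.041 (quartiles -0.169 and 0.043). The 95% interval of this median, -0.130 to 0.003, included 0. Intervals of median differences in score are taken from the ranked differences of the ORFs. They treat ORFs as independent and cover neither counting error nor variation between cultures. These ORFs lay in 35 XUTs, and some overlap each other and can count the same reads. In the 10 that overlap no other ORF, 7 scored lower and 3 higher, with a median difference of -0.123 (-0.255 to 0.095). Over the 47 ORFs, median counts were 17 reads in WT and 78 with CHX. In the 14 ORFs with counts within 2.5-fold, 11 scored lower and 3 higher, with a median difference of -0.041 (-0.301 to 0.009). Their median counts were 21 and 45.5 reads. The part of the counts in the lower scores was not tested.

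In the 36 ORFs over 60 nt, 26 scored lower and 10 higher with CHX (median difference -0.076, -0.161 to -0.021). In the 11 of up to 60 nt, from 8 XUTs, 4 scored lower and 7 higher (0.025, -0.255 to 0.145). The difference between these length classes was not tested, and the interval of the short class includes the median of the long one. In WT + CHX the 120 ORFs of up to 30 nt with at least 10 reads had a median score of 0.582, against 0.415 for 31 to 60 nt and 0.328 for the 114 over 150 nt. Median counts in these 3 classes lay between 15.5 and 18 reads. Short ORFs have fewer codons for reads to lie in, and the part of this in their scores was not tested. By order, medians lay between 0.336 and 0.395.

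**Figure D5:**
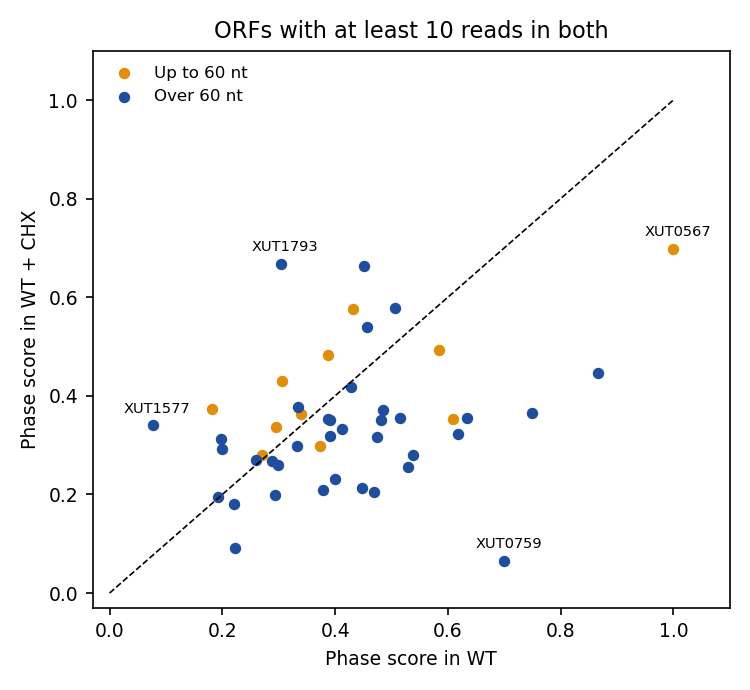
Phase score (0 to 1) in WT (x axis) and in WT + CHX (y axis) for the 47 well-covered ORFs, coloured by length (orange up to 60 nt, blue over 60 nt), with the line of equal scores dashed. More points lie below the line (30) than above it (17).

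The largest fall in score was in the 207-nt first ORF of XUT0759, from 0.700 on 12 reads to 0.065 on 24, the ORF whose share within its XUT was also smaller by most. Next came the 102-nt ORF of XUT0567 (0.866 to 0.446) and an ORF of XUT0869, antisense to YPL162C (0.75 to 0.365). The 42-nt ORF of XUT0567, which overlaps the 102-nt one (1 to 0.699), and an ORF of XUT1156 (0.619 to 0.323) completed the 5 largest falls.

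The score was higher with CHX by most in the 69-nt first ORF of XUT1793 near the protease gene AXL1, from 0.304 on 11 reads to 0.668 on 111. A 270-nt ORF of XUT1577 antisense to FPY1 went from 0.077 to 0.340, and the first ORF of XUT0780 from 0.451 to 0.663. The 39-nt first ORF of XUT1514 (0.182 to 0.374) and the 36-nt ORF of XUT1511 printed above (0.432 to 0.576) followed. The 24-nt ORF of XUT1036 scored 0.608 on its 10 WT reads and 0.353 on 393.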

How the data were processed

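The authors deposited 1 table with a read count (whole numbers, not scaled) and a phase score per ORF and condition, with the 2 replicates merged. The tools were UMI-tools, cutadapt and HISAT2 2.2.0 on build R64, per the submitters' processing notes. How ORFs were called, scored and merged is not given in the sources used here. All 13912 ORFs off the plasmid started with ATG and preceded a stop codon in the R64 sequence (RefSeq).

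ORF order, length (Stop - Start + 1), shares and ratios of shares were computed with Python 3.11.15, pandas 2.3.3 and SciPy 1.17.1, and tested on simulated reads. Non-overlapping ORFs were taken in order of pooled count. Ratio intervals condition on the sum of both counts. XUTs were compared from 4 WT reads and 20 in sum, and called at 2-fold. The text names the 10 largest and 10 smallest ratios from 10 reads in each condition, the 5 most-read ORFs per condition, and the 5 largest changes each way of score and of first-ORF share. XUT1036 and genes of the lists are named beside them. The members, lists and rules were chosen with earlier results of these data known. Alternatives changed overlaps, plasmid, repeats, XUTs with most reads, minimum, scaling and threshold. Replicates could not be left out or blocked in merged values.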

Additional observations from a re-analysis of the deposited data

Results flagged for a closer look

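The following groups of XUTs took a smaller share of reads with CHX in WT and a larger one in upf1, with counting intervals on opposite sides of 1. The difference between genotypes was not tested, since each condition is 1 merged value. XUTs with 1 ORF held 2.28% of reads in WT and 1.51% in WT + CHX (ratio 0.661, 0.516 to 0.857), and 0.544% and 1.14% in upf1 (2.10, 1.68 to 2.66). XUTs with 2 to 5 ORFs had ratios of 0.885 (0.818 to 0.959) in WT and 1.42 (1.35 to 1.498) in upf1. XUTs over a Ty element or LTR had 0.832 (0.756 to 0.916) in WT and 1.10 (1.04 to 1.17) in upf1. For each group, leaving out 1 XUT was enough for the WT interval to include 1. XUTs with 1 ORF had 0.902 (0.670 to 1.24) without XUT1492, which held 26 of their 76 WT reads. XUTs with 2 to 5 ORFs had 0.925 (0.852 to 1.004) without XUT1137, which held 48 of their 714 WT reads. Without XUT1514, which held 46, the interval stayed below 1 (0.917, 0.846 to 0.996). XUTs over a Ty element or LTR had 0.900 (0.810 to 1.00) without XUT1511 and 0.951 (0.856 to 1.06) without XUT1722. In upf1 the ratio of the group stayed above 1 without XUT1492 (2.52, 1.94 to 3.31) and without XUT1137 (1.46, 1.38 to 1.54). It also did without XUT1511 (1.09, 1.03 to 1.16) and without XUT1722 (1.16, 1.09 to 1.23). These XUTs were left out after seeing the data.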

How the results depend on the processing

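No paired analysis was possible because the table merges the replicates, and leaving out a replicate was not run for the same reason. Of 152 recomputed summary values, 115 stayed within the counting or median interval of the reported value, or within 1.5 times for counts. With the plasmid kept (24.9% of all WT reads, 7.14% with CHX) the ratios were 1.36, 1.30, 0.804 and 0.713 for orders 1, 2, 4 and 5 or later. By length they were 1.62, 1.13, 1.48, 1.16 and 0.522 from the shortest class to the longest, and 1.22 and 0.772 for first and later ORFs over 60 nt. The median log2 ratio per XUT was then 0.028. Without the 5 XUTs with most reads, order 1 had 1.10, order 4 0.989 and A at -3 1.09. Without the 25 with most reads, chosen after seeing the data, order 4 had 1.01, up to 30 nt 1.24, 61 to 90 nt 1.04, over 150 nt 0.655 and first ORFs of up to 60 nt 1.44. In the same setting A at -3 had 1.14, TAA 1.11, TGA 0.990 and antisense 0.953, and 9 XUTs had 2-fold larger shares. Without XUTs over a Ty element or LTR, 91 to 150 nt had 1.02. With 10 reads in each condition, 2 XUTs were larger and 20 smaller (median log2 -0.62), at 3-fold 7 and 17, and chosen by upf1 reads, also after seeing the data, 65 and 25 (median log2 0.23). Centred on the median ratio, the median log2 is 0 by construction. With 1 read in each condition the median score difference was -0.224. With overlaps kept, thinned CHX reads fell in 1.10 times the XUTs of WT. The cause of these shifts was not tested. Depth is a limit, since the median XUT ratio rests on few WT reads, and no interval covers variation between cultures.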
